A study of Homo sapiens with 6 samples.

Results

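RGS10 and its relatives are regulators of G protein signaling (RGS). They were read in EJ/T24 cells, an established human line of invasive bladder cancer, through every probeset whose platform annotation gives 1 gene symbol and that symbol is RGS2, RGS3, RGS4, RGS5, RGS10, RGS12, RGS14, RGS16, RGS19 or RGS20. These were 35 of the 54613 probesets tested, for 10 of 19775 genes. The group was chosen because 1 RGS10 probeset had a lower signal in FOXA1 transfected cells, so that all values of this contrast at these genes are a description and carry no test. A probeset is a group of short oligonucleotides that reads 1 or more transcripts, and where its name ends in _s_at these share the same stretch.

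The series has 6 HG-U133 Plus 2.0 arrays, and 3 hold RNA of EJ/T24 cells that received a FOXA1 construct (FOXA1 transfected) and 3 that of cells given an empty vector (control). FOXA1 is a forkhead factor that binds closed chromatin and lets other regulators in. Both groups received plasmid DNA with Lipofectamine, which the sample labels and the methods name in different forms, and the control vector is pUC19 in the labels and the empty counterpart of a pcDNA3 vector in the methods. The line is a single cell line, transfection was into cells in dishes, and neither the share of cells that took up the construct nor the time of harvest is stated. The methods describe transfection dish by dish and in triplicate, but not whether each array had a dish of its own, so that p-values reflect array-to-array spread, part of which may be technical. All differences below are FOXA1 transfected minus control on the log2 scale of the signal, with the standard error (SE) of a limma fit across all probesets. In the study's own list of changed probesets the sign runs the other way from the deposited signals, RGS22 included, and why was not tested. All 50 listed probesets were matched to the table and all 50 had the opposite sign. The signs given here follow the sample labels, which the FOXA1 signal also follows (below), and every sign and ratio below would turn round if the labels rather than that list were swapped.

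A G protein coupled receptor that binds its ligand makes the alpha subunit of a G protein take up GTP, and the alpha subunit and the beta/gamma pair then act on effectors. RGS proteins bind the GTP form of the alpha subunit and speed its hydrolysis of GTP, which ends the signal. Most members act on the Gi and Gq families of alpha subunits, and they are grouped by the sequence of the RGS domain and by what else the protein carries. In smooth muscle, heart, neurons and blood cells they set how long a receptor signals.

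The transfected gene was read first. Per the methods, FOXA1 protein was checked by western blot in part of the transfected cells, and only the RNA signal is read here. FOXA1 had signals of 38.9, 34.8 and 31.9 in FOXA1 transfected arrays, against 21.8, 24.4 and 21.0 in control arrays, at 204667_at. The groups did not overlap, and the difference was 0.65 (SE 0.23), with an adjusted p of 0.307 from limma and an exact two-sided permutation p of 0.1, the smallest that 3 arrays against 3 can give. The second FOXA1 probeset, 237086_at, was near the floor (5.30 ± 2.43 in FOXA1 transfected and 7.07 ± 1.07 in control arrays, SD, n = 3 each). Median signals were 14.4 to 17.5 in FOXA1 transfected and 12.3 to 16.1 in control arrays. A sign of RNA quality, the signal of the 3' ACTB control probeset over its 5' one, was 2.37 ± 0.228 in FOXA1 transfected and 1.73 ± 0.188 in control arrays (SD, n = 3 each), without overlap. The same ratio for GAPDH was 0.920 ± 0.0217 in FOXA1 transfected and 0.899 ± 0.00926 in control arrays and overlapped. Among epithelial markers KRT7, KRT8 and KRT18 were above the median signal while KRT19, CDH1 and EPCAM were below it. The 5 leukocyte markers measured summed to 77.7 to 87.2 in FOXA1 transfected and 47.7 to 66.7 in control arrays, with CD79A above the median signal and PTPRC, CD3E, CD14 and LYZ below it. Sums for endothelium, for pericytes and smooth muscle, and for nerve and glia overlapped between the groups. CD79A, the highest of the leukocyte markers, was 45.8 ± 3.03 in FOXA1 transfected and 30.4 ± 5.78 in control arrays (SD, n = 3 each). PTPRC was 7.27 ± 0.569 and 7.40 ± 2.62 in the same order. Since all arrays hold RNA of 1 cultured line, the leukocyte sum is not read as a share of leukocytes. The part of the ACTB ratio in the values below was not tested.

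Across the RGS genes the differences ran both ways, and many were no larger than their SE. Of the 35 probesets, 25 were higher and 10 lower in FOXA1 transfected arrays. The median difference was 0.22, against 0.08 over all probesets. With each array centred on its median these medians were 0.04 and -0.10. Adjusted p from limma was under 0.05 at 1 of the 35, RGS10 204319_s_at, where 0.0586% of all probesets (32 of 54613, 21 higher and 11 lower) were called. Every FOXA1 transfected array lay above every control array at 3 of the 35 (10.5% of all probesets) and below it at 2 of the 35 (5.86% of all). Since RGS10 chose the group, nothing is read from these counts. Of the 35 probesets, 15 had a mean signal over the 6 arrays above 14.5, the median of all probesets, and the 20 others are called dim. All 5 without overlap, the RGS10 probeset that chose the group included, were among the 15. Of all 27298 probesets above the median signal, 3509 were without overlap and higher, and 2443 without overlap and lower. The 15 had a median difference of 0.15, against 0.03 for all probesets above the median signal. The 20 dim ones had a median of 0.29, against 0.21 for all dim probesets.

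**Figure D1:**
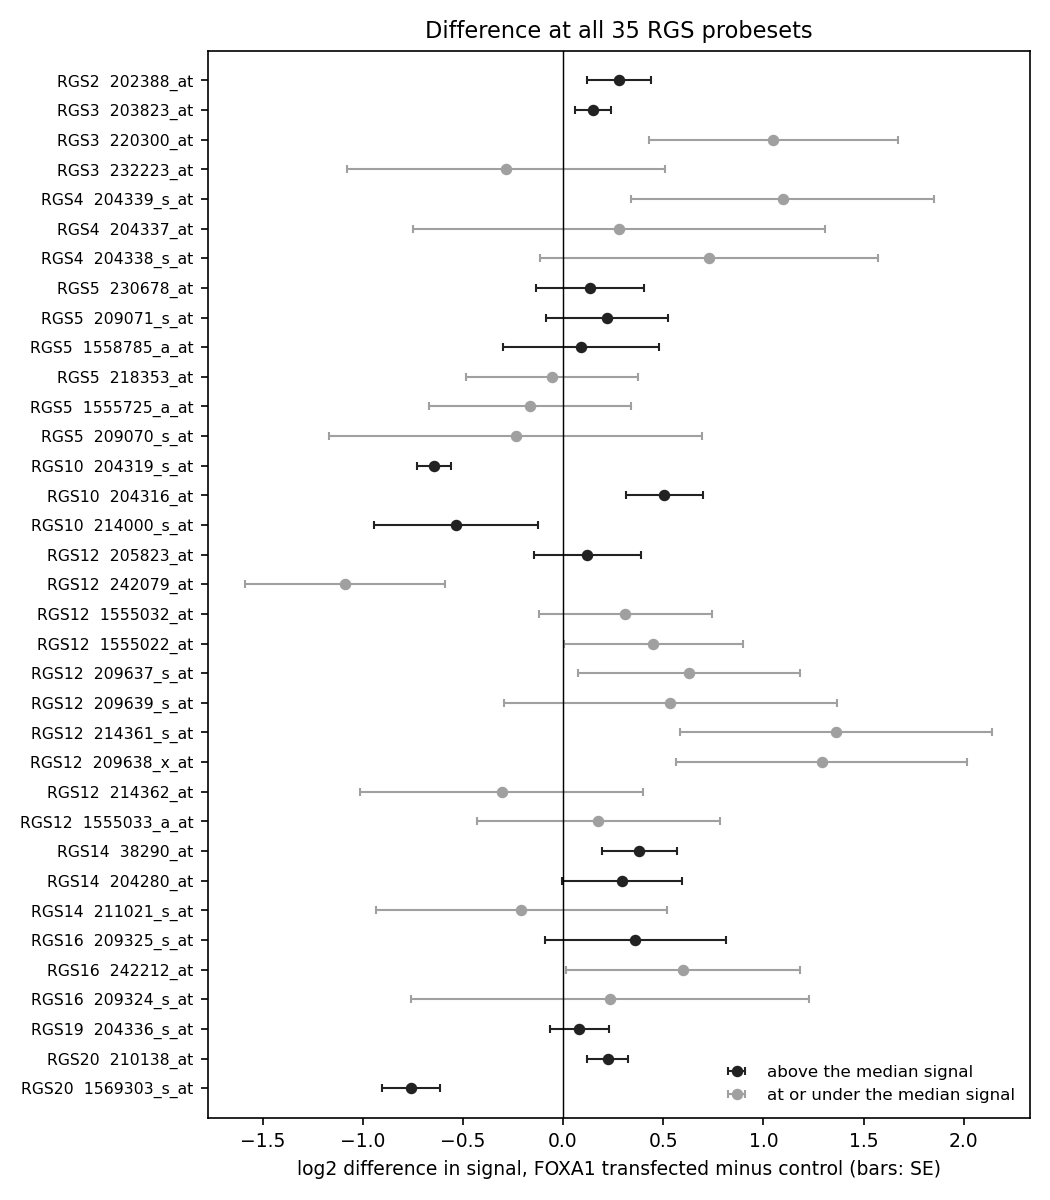
Log2 difference in signal (x axis, FOXA1 transfected minus control, bars are the SE of the fit, n = 3 arrays each) for all 35 RGS probesets, black above and grey at or under the median signal. RGS10 204319_s_at (-0.64) and RGS20 1569303_s_at (-0.76) lie far below 0 with short bars, and dim probesets spread from -1.09 to 1.36 with long bars. Of the 34 others than RGS10 204319_s_at, centring each array on its median turns the sign at 6 and quantile normalization at 2.

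RGS10 is a small protein with little beyond its RGS domain, acts on alpha subunits of the Gi family and is best known in microglia and other immune cells. Its 3 probesets did not give one direction. At 204319_s_at the signals were 371.5, 398.3 and 367.4 in FOXA1 transfected arrays, against 597.9, 632.2 and 547.1 in control arrays. The 3 FOXA1 transfected values lay close together and far below all 3 control values. The means were 379 ± 16.8 in FOXA1 transfected and 592 ± 42.8 in control arrays (SD, n = 3 each), a difference of -0.64 (SE 0.09) or 0.641 of the control signal. This is the value that chose the group. In RNA of a whole dish, less RNA in every cell and a stronger loss in some of the cells cannot be told apart. The difference was -0.82 with each array centred on its median and -0.62 with quantile normalization. Relative to the median of all probesets it was -0.72 with or without centring. Without any 1 array it stayed between -0.70 and -0.59. The call at an adjusted p under 0.05 was kept without FOXA1 transfected array 3 and lost without FOXA1 transfected array 1 or 2 or without control array 1, 2 or 3, each of which left 0 of the 35 probesets called. It was also lost without the intensity trend in limma, with centring, and with low signals raised to the 20th percentile.

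At 204316_at the order was the opposite, with 48.8, 50.5 and 56.6 in FOXA1 transfected arrays, against 40.7, 40.3 and 29.8 in control arrays. Here all 3 FOXA1 transfected arrays were the higher ones. The means were 52.0 ± 4.10 in FOXA1 transfected and 36.9 ± 6.18 in control arrays (SD, n = 3 each), a difference of 0.50 (SE 0.19). At 214000_s_at FOXA1 transfected arrays had 16.6, 17.5 and 7.5, against 17.8, 22.1 and 16.8 in control arrays. The groups overlapped there, and the difference of -0.53 (SE 0.41) rests largely on the low FOXA1 transfected array 3, without which it was -0.14.

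**Figure D2:**
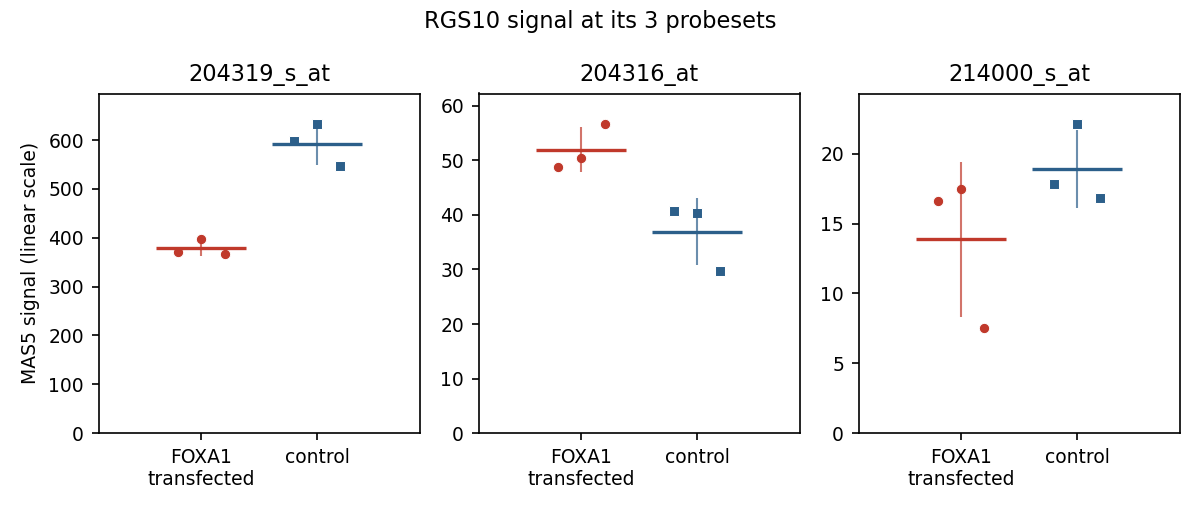
MAS5 signal (y axis, linear scale from 0, its range differs between panels) of the 3 RGS10 probesets, FOXA1 transfected arrays left and control arrays right, with points for arrays, wide bars for means and thin lines for 1 SD (n = 3 each). FOXA1 transfected arrays lie below control arrays at 204319_s_at, above them at 204316_at, and overlap them at 214000_s_at.

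A ratio of both signals within an array is free of any scaling of that array, but not of its RNA quality. The part of the ACTB ratio (above) in it was not tested. Here the ratio also holds the signal that chose the group, so it is a further description of the same values. The log2 ratio of 204319_s_at to 204316_at was 2.93, 2.98 and 2.70 in FOXA1 transfected arrays, against 3.88, 3.97 and 4.20 in control arrays. The means were 2.87 ± 0.15 in FOXA1 transfected and 4.02 ± 0.17 in control arrays (SD, n = 3 each), and their difference of -1.15 combines the lower 204319_s_at with the higher 204316_at. The log2 ratio of 204319_s_at to 214000_s_at was 4.48, 4.51 and 5.61 in FOXA1 transfected arrays and 5.07, 4.84 and 5.03 in control arrays, which overlapped.

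RefSeq (GRCh38.p14) places RGS10 on chromosome 10, minus strand, with 2 transcription starts 6133 bases apart. No source used here tells which start gives rise to the transcripts that each probeset reads. The 250 bases before each start are shown 5' to 3' on the gene's strand because the probesets of this gene went opposite ways and the starts differ in sequence. Capitals mark a match on either strand to TGTTTNC, a looser pattern than the forkhead core TGTTTAC, since it allows any base at the sixth place. The marked stretch reads TGTTTTC and is not a match to TGTTTAC.
RGS10 upstream start, chr10:119542720-119542969: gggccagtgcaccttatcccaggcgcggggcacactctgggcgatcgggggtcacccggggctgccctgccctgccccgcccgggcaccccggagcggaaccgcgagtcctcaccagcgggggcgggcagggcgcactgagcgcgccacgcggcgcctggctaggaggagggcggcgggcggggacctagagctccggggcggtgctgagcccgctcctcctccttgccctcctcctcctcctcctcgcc
RGS10 downstream start, chr10:119536587-119536836: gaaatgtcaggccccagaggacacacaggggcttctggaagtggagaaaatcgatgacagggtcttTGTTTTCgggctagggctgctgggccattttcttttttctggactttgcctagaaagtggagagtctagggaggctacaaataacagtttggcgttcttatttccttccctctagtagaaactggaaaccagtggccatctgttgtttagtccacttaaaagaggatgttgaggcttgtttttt
The upstream window had 77.2% G and C with 26 CpG and no match, and the downstream window had 46% G and C with 3 CpG and 1 match, which ends 177 bases before the start. Of 35116 windows of this length before RefSeq starts, 15.5% held TGTTTNC and 2.98% held TGTTTAC, which is one of its forms. For the RGS genes 23 windows of 9 genes were at hand, with none for RGS20. TGTTTNC was found in 3 of the 23, those of RGS10 above and 2 of the 4 of RGS4, and TGTTTAC in 0. A match in a window is a description of its letters and was not tied to any binding here.

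RGS12 and RGS14 belong to the same subfamily as RGS10 by their RGS domain, and both also carry Ras binding domains and a GoLoco motif, which holds Gi alpha subunits in the GDP form. RGS14 had 58.8, 57.1 and 54.1 in FOXA1 transfected arrays, against 43.8, 35.0 and 53.6 in control arrays, at 38290_at. The groups did not overlap, but by a narrow gap between the lowest FOXA1 transfected and the highest control array. The difference was 0.38 (SE 0.19). At 204280_at it was 0.29 (SE 0.30) with overlap, and 211021_s_at stayed between 1.0 and 1.9 in all 6 arrays. RGS12, a large protein that also has a PDZ domain, has 10 probesets, of which 9 were dim, 8 were higher and 2 lower, and none was without overlap. The one above the median signal, 205823_at, had 26.3, 33.9 and 33.6 in FOXA1 transfected arrays, against 33.4, 20.3 and 34.3 in control arrays. These overlapped throughout (difference 0.12, SE 0.27, and -0.06 with each array centred on its median). The RGS12 probesets with the lowest and highest differences were both dim. At 242079_at FOXA1 transfected arrays had 8.3, 7.6 and 8.4, against 24.4, 8.4 and 24.8 in control arrays (-1.09, SE 0.50), where the second control array met the FOXA1 transfected ones. At 214361_s_at they had 3.7, 17.2 and 14.5, against 5.5, 1.7 and 5.8 in control arrays (1.36, SE 0.78), where the first FOXA1 transfected array lay among the controls. Probeset 209638_x_at gave much the same picture (1.29, SE 0.73), with the same low first array. Differences at the other 6 ran from -0.31 to 0.63, all with overlap.

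RGS2, RGS3, RGS4, RGS5 and RGS16 belong to the R4 subfamily, mostly short proteins that reach the membrane through an amphipathic helix. RGS2, which prefers alpha subunits of the Gq family and lowers vascular tone, had 238.4, 253.4 and 230.0 in FOXA1 transfected arrays, against 145.7, 226.4 and 234.9 in control arrays at its only probeset. Only the first control array stood apart. The difference was 0.28 (SE 0.16) with it and 0.06 without it. RGS3, which also has long forms with a PDZ domain, had 274.6, 286.9 and 257.1 in FOXA1 transfected arrays, against 243.4, 239.6 and 253.9 in control arrays at 203823_at. The groups did not overlap, and the difference was 0.15 (SE 0.09). It was -0.03 with each array centred on its median and 0.16 with quantile normalization. The other RGS3 probesets were dim: 220300_at had 11.8, 9.6 and 12.1 in FOXA1 transfected arrays, against 5.3, 11.2 and 2.6 in control arrays (1.05, SE 0.62), and 232223_at stayed between 0.8 and 3.2.

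RGS4, a regulator best known in neurons and heart muscle, was dim at all 3 of its probesets, with signals of 0.4 to 22.2. At 204339_s_at FOXA1 transfected arrays had 22.2, 5.0 and 4.9, against 2.4, 4.0 and 5.8 in control arrays. The difference of 1.10 (SE 0.75) was 0.37 without FOXA1 transfected array 1, the one that stood out. The others gave 0.28 (SE 1.03) at 204337_at and 0.73 (SE 0.84) at 204338_s_at. RGS5, a marker of pericytes, had 6 probesets with signals of 1.2 to 45.2 and differences of -0.24 to 0.22, all with overlap. The one with the highest mean signal, 230678_at, had 31.7, 45.2 and 34.6 in FOXA1 transfected arrays, against 37.6, 23.0 and 43.4 in control arrays (0.13, SE 0.27, and -0.05 with centring). RGS4 and RGS5 lie next to each other on chromosome 1. RGS16, known in lymphocytes, retina and liver, had 25.1, 12.2 and 19.3 in FOXA1 transfected arrays, against 24.2, 8.6 and 13.4 in control arrays at 209325_s_at. The spread within each group was wider than the difference of 0.36 (SE 0.45). Its 2 dim probesets gave 0.60 (SE 0.58) at 242212_at and 0.23 (SE 0.99) at 209324_s_at.

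RGS19 and RGS20 belong to the RZ subfamily, which carries a string of cysteines near the amino end that takes up palmitate and acts on Gi and Gz alpha subunits. RGS20 gave opposite signs at its 2 probesets, as RGS10 did. At 1569303_s_at FOXA1 transfected arrays had 117.0, 88.4 and 82.0, against 177.0, 157.4 and 147.6 in control arrays. All 3 FOXA1 transfected arrays were below all control arrays, with means of 95.8 ± 18.6 in FOXA1 transfected and 161 ± 15.0 in control arrays (SD, n = 3 each). The difference of -0.76 (SE 0.15), or 0.591 of the control signal, was larger in size than that of RGS10 204319_s_at but had a larger SE. At 210138_at FOXA1 transfected arrays had 535.7, 588.2 and 550.3, against 433.7, 451.0 and 558.4 in control arrays. There the third control array reached the FOXA1 transfected ones (difference 0.22, SE 0.10, 0.04 with centring and 0.25 with quantile normalization). Within arrays the log2 ratio of 1569303_s_at to 210138_at was -2.19, -2.73 and -2.75 in FOXA1 transfected arrays, against -1.29, -1.52 and -1.92 in control arrays. The ratio was lower in every FOXA1 transfected array, with a difference in means of -0.98. RGS19, which was found as a partner of a Gi alpha subunit, had 292.5, 273.5 and 280.1 in FOXA1 transfected arrays, against 201.4, 311.1 and 302.6 in control arrays. Here the control arrays spanned the FOXA1 transfected ones. The difference was 0.08 (SE 0.15), or -0.10 with centring and 0.09 with quantile normalization.

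**Figure D3:**
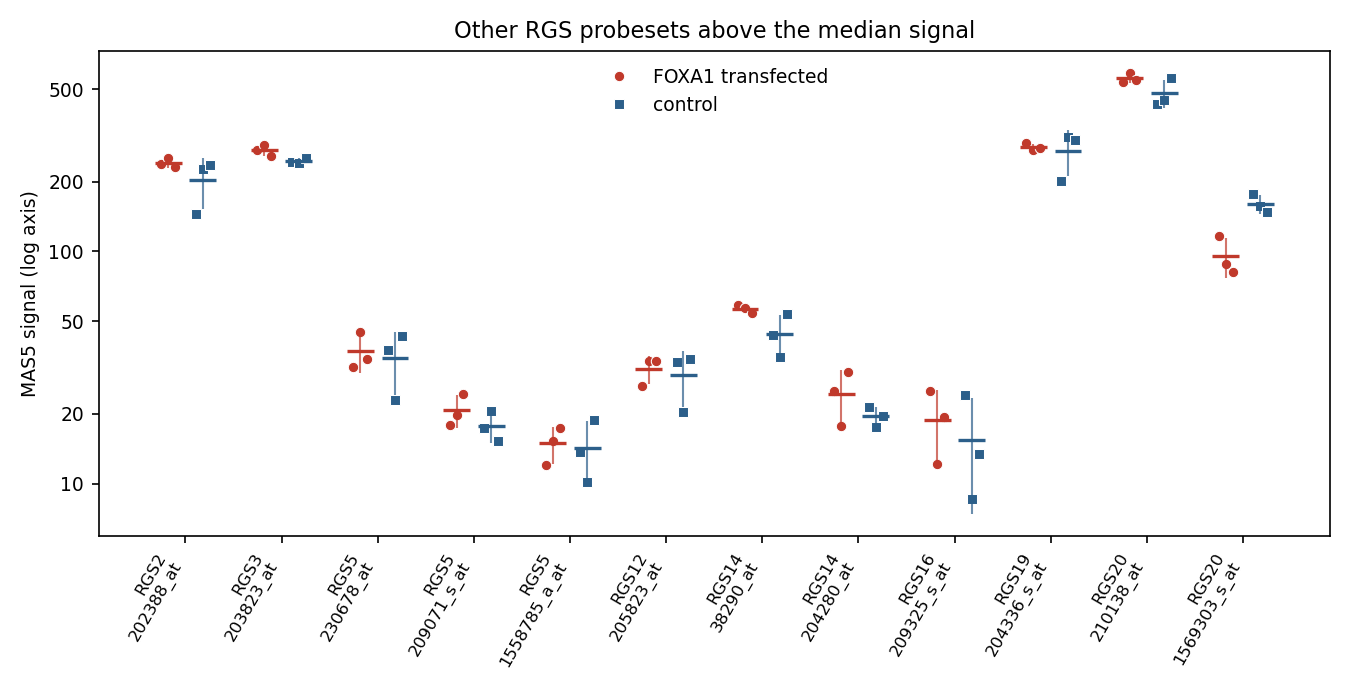
MAS5 signal (y axis, log scale) at the 12 other RGS probesets above the median signal, FOXA1 transfected arrays left and control arrays right in each pair, with points for arrays, wide bars for means and thin lines for 1 SD (n = 3 each). RGS20 1569303_s_at is the pair in which FOXA1 transfected arrays lie clearly below, and RGS3 203823_at and RGS14 38290_at lie above by narrow gaps. The RGS3 difference is -0.03 when arrays are centred and 0.16 with quantile normalization.

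**Figure D4:**
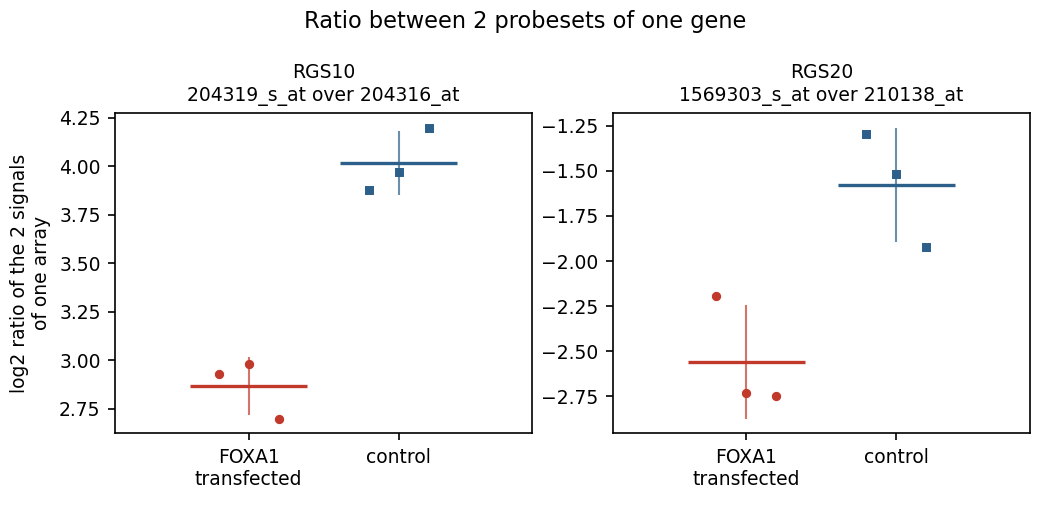
Log2 ratio of a pair of probesets of one gene within each array (y axis), for RGS10 and RGS20, FOXA1 transfected arrays left and control arrays right, with points for arrays, wide bars for means and thin lines for 1 SD (n = 3 each). The ratio is lower in all FOXA1 transfected arrays for both genes, with differences in means of -1.15 for RGS10 and -0.98 for RGS20, while its own level has no meaning across genes.

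The rest of the pathway was read with the probeset of highest mean signal of each gene, where the 10 RGS genes had a median difference of 0.19 (9 higher, 1 lower) and all 19775 genes 0.07 (59.2% higher, 13 called higher and 6 lower). With each array centred on its median, 5 of the 10 were higher and their median was 0.0042, where that of all probesets was -0.10. With quantile normalization 9 of the 10 were higher and their median was 0.18. Of 10 measured among 11 other RGS genes, 0 were called in limma and 0 had an unadjusted p under 0.05, with a median of 0.37, which was 0.19 with centring, 0.21 with quantile normalization and 0.08 over the 2 that were not dim. RGS17, of the RZ subfamily, had 223.9, 223.9 and 220.0 in FOXA1 transfected arrays, against 265.2, 255.6 and 219.3 in control arrays (-0.14, SE 0.10). RGS8, a neighbour of RGS16 on chromosome 1 known in brain, gave 0.29 (SE 0.33), and RGS18, known in platelets, 0.22 (SE 0.47). RGS22, known in testis, was dim with 7.0, 2.5 and 3.1 in FOXA1 transfected arrays, against 4.5, 1.9 and 0.8 in control arrays (1.0, SE 0.86). These groups overlapped in each of the 4 genes.

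RGS proteins act on alpha subunits and so beside receptors and effectors, and none of the measured genes of these 6 lists was called in limma. At an unadjusted p under 0.05 stood 2909 of all 19775 genes (14.7%), which is the share to read the counts of each list against. Of 15 alpha subunits 11 were higher and 4 lower, with a median of 0.18 (-0.0033 with centring) and 4 at an unadjusted p under 0.05. GNAI3, a target of RGS10, differed by 0.06 (SE 0.08). GNAS, which stimulates adenylyl cyclase, differed by 0.18 (SE 0.08), and GNA13, which acts through RhoA, by -0.11 (SE 0.09). These 3 had the highest mean signals of the list and overlapped between the groups. GNAI2, another Gi alpha subunit, named after its values were seen, had 107.4, 99.2 and 93.1 in FOXA1 transfected arrays, against 48.0, 75.4 and 44.9 in control arrays, without overlap (0.87, SE 0.19, adjusted p = 0.142 from limma). Of 17 beta and gamma subunits 8 were higher and 9 lower (median -0.04, or -0.23 with centring, 2 at an unadjusted p under 0.05). GNB1 had 2057.6, 2018.7 and 1778.8 in FOXA1 transfected arrays, against 1538.1, 1656.9 and 1542.4 in control arrays, without overlap (0.30, SE 0.08, adjusted p = 0.198 from limma). GNG5 and GNG10 differed by -0.06 and -0.05. Of 17 effectors 10 were higher and 7 lower (median 0.21, or 0.02 with centring, 3 at an unadjusted p under 0.05). The highest mean signals were those of the phospholipase PLCB4 (-0.01), the RhoA exchange factor ARHGEF12 (-0.17) and the adenylyl cyclase ADCY3 (0.26). The RhoA exchange factors ARHGEF1 (0.76, SE 0.20, adjusted p = 0.194 from limma) and ARHGEF11 (0.84, SE 0.27, adjusted p = 0.271 from limma) were higher without overlap. Both were named after their values were seen. Without overlap, 3 of the 17 were higher and 1 lower, against 2470 and 1435 of all 19775 genes.

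Receptor kinases, which mark active receptors for arrestins, held the list gene with the smallest adjusted p outside the RGS members. GRK2, which has an RGS homology domain of its own, had 136.9, 100.2 and 110.4 in FOXA1 transfected arrays, against 65.2, 64.2 and 70.2 in control arrays. The groups lay well apart (0.79, SE 0.14, adjusted p = 0.0932 from limma). It was called where dim probesets were left out, as were 174 of the 27298 probesets then tested. GRK3 and GRK6 differed by -0.01 and 0.17. GRK5, the neighbour of RGS10 on chromosome 10, had 75.1, 48.8 and 56.9 in FOXA1 transfected arrays, against 76.0, 69.6 and 47.6 in control arrays, which overlapped (-0.09, SE 0.22). Of the 6 receptor kinases and arrestins measured among 7, 3 were higher, with a median of 0.08 (-0.11 with centring) and 1 at an unadjusted p under 0.05. Of 4 exchange factors and exchange inhibitors among 5, 2 were higher, with a median of -0.06 (-0.24 with centring) and 2 at an unadjusted p under 0.05. GPSM2, a GoLoco protein like RGS14, had 650.2, 627.4 and 570.4 in FOXA1 transfected arrays, against 691.0, 758.9 and 713.5 in control arrays, without overlap (-0.23, SE 0.08, adjusted p = 0.319 from limma). GPSM1 differed by -0.36 and the exchange factor RIC8B by 0.21. Of 24 receptors measured among 29, 17 were higher, with a median of 0.13 (-0.05 with centring) and 1 at an unadjusted p under 0.05. The thrombin receptor F2R, the prostaglandin receptor PTGER4 and the adenosine receptor ADORA2B differed by -0.14, -0.11 and -0.18.

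**Figure D5:**
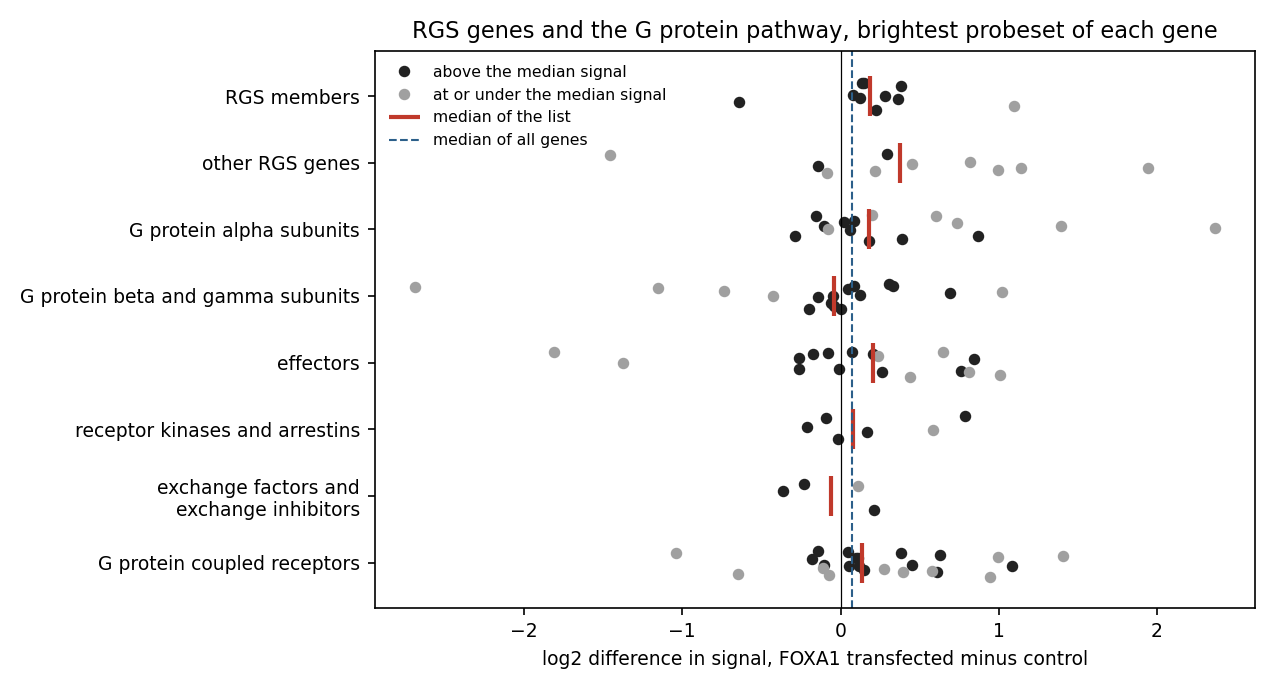
Log2 difference (x axis, FOXA1 transfected minus control) of each gene at its probeset of highest mean signal, 1 row per list, black above and grey at or under the median signal, with red bars for list medians and a dashed line for the median of all genes (0.07). RGS10 (-0.64) is the lone RGS member below 0 at these probesets, but RGS20 1569303_s_at, not drawn here, is at -0.76. Centring each array on its median leaves 5 of the 10 members above 0. It turns the medians of the alpha subunits, the receptor kinases and the receptors below 0, and that of all probesets to -0.10. With quantile normalization 9 of the 10 members stay above 0, and those list medians are 0.06, 0.04 and 0.06.

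Over the 6 arrays, the pattern of RGS10 204319_s_at was set beside 22649 probesets with 1 symbol and a mean signal above the median. The 5 most alike were those of MRFAP1L2 (r = 0.9955), NDE1 (r = 0.9918), FOCAD (r = 0.9917), NBDY (r = 0.9912) and RPS9 (r = 0.9907), by Pearson correlation of log2 signals. Their differences ran from -0.75 for NDE1 to -0.27 for NBDY. A sign below 0 follows from the choice by likeness to a probeset that was lower, and is no result. Of these NDE1, a dynein regulator of mitosis, was called in limma, which the same choice makes more likely. Of the probesets compared, 582 had r above 0.9 and 826 had r under -0.9, so that a high r is common over these 6 arrays, which share 1 split into groups.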

How the data were processed

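The table deposited by the authors holds 1 linear signal intensity per probeset and array, made with MAS5 per the labels and methods; a later RMA log2 step and SAM described in the methods are not part of these values and were not used here. Array control probesets (62 of 54675) were left out, 25 values at 0 were set to 0.1, and signals were converted to log2. Groups and replicate numbers came from the sample labels. The two-sided comparison used lmFit and eBayes (intensity trend) of limma 3.58.1 under R 4.3.3, p-values were adjusted over 54613 probesets by Benjamini-Hochberg and 0.05 was the threshold; the code was tested on simulated data. Of 41091 probesets with 1 symbol, 41037 matched a current gene by Entrez number; 1801 had several symbols. The genes described and the pathway and marker lists were chosen with earlier results of these data known. Named were all members, FOXA1, RGS22, list genes called and the 3 of highest mean signal per list, and the 5 probesets most like RGS10 204319_s_at. Added were GRK5, as the neighbour of RGS10, and GNAI2, ARHGEF1 and ARHGEF11, after their values were seen. List genes not read through a single-symbol probeset were not analysed here. Sequences came from RefSeq (GRCh38.p14). Alternatives were no intensity trend, quantile normalization, median centring, a floor at the 20th percentile (3.5), no dim probesets, a replicate block, and single arrays left out. The number of arrays limits the precision.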

Additional observations from a re-analysis of the deposited data

How the results depend on the processing

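The RGS10 204319_s_at difference chose the group, and its groups do not overlap, so that leaving out 1 array could not turn its sign. The difference stayed below 0 under every alternative run, from which nothing is read. It was -0.82 with each array centred on its median, -0.62 with quantile normalization and -0.70 to -0.59 with single arrays left out. The count of all probesets called (32) was 1 without the intensity trend, 7 with median centring, 174 over probesets that are not dim, and 4 to 76 with single arrays left out. The count of RGS probesets called (1) was 0 without the trend, 0 with median centring, 0 with low signals set to the 20th percentile, and 0 to 1 with single arrays left out. With dim probesets left out, so that fewer were tested, 174 of all 27298 were called. Among RGS probesets it was 2 of 15 (RGS10 204319_s_at and RGS20 1569303_s_at), and 1 list gene, GRK2, was called where 0 had been. Elsewhere the cause was not tested. The median over RGS probesets stayed between 0.04 and 0.32. Of the 34 other RGS probesets, 28 kept their sign with median centring, 32 with quantile normalization and 29 to 32 with single arrays left out. With the replicate number as a replicate block, 85 of all 54613 probesets and 2 of the 35 RGS probesets (RGS10 204319_s_at and RGS20 1569303_s_at) were called. Arrays of the same number deviated from their group means with correlations of 0.0439, 0.164 and 0.107, which does not pair them by the rule used (all over 0.1), although every array correlated best with that of its own number. Dim probesets, 20 of the 35, are read close to the floor, and their differences carry SEs that 3 arrays do not narrow.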
